A study of Mus musculus with 4 samples.

Results

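The 10 genes described here encode the cyclins, inhibitors and pocket protein that set the pace of the G1 phase of the cell cycle: the CDK inhibitor genes Cdkn1a, Cdkn1b, Cdkn1c, Cdkn2a, Cdkn2b and Cdkn2c, the cyclin genes Ccnd1, Ccnd2 and Ccne1, and Rb1. They were taken by symbol from a deposited table of 18018 rows, of which 17906 carried a mean level, and all 10 were found with a mean level. The experiment sequenced poly(A) RNA of the mouse lung epithelial line MLE12, in 2 libraries of lamin B1 knockdown (Lmnb1 KD) cells and 2 libraries of control cells. Both kinds of cell were kept in puromycin at 2 µg/ml, and the study's methods describe such lines as stable populations selected after lentiviral delivery of an shRNA. The study's materials list 2 numbered shRNAs against mouse Lmnb1 in the pLKO.1 vector, both under the same clone identifier. The materials do not say which shRNA these libraries carry. MLE12 was derived from lung tumors of mice that carried the SV40 large T antigen under a surfactant protein C promoter, and large T is known to bind the pocket proteins and p53.

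The value used for each gene was the authors' mean over all 4 libraries, in normalized read counts. It joins Lmnb1 KD and control cells in 1 number, so it has no SD, and no difference between Lmnb1 KD and control cells is given for any gene. The values therefore describe which G1 regulators these cells transcribed, and not how loss of lamin B1 changed them. As in any bulk sample, a low level in each cell and expression in few cells cannot be told apart. The targeted gene Lmnb1 had a mean of 3946 normalized counts by the same measure, which cannot check the knockdown. To compare genes with each other, the authors' mean was divided by the length of the longest annotated transcript in kilobases, and the result is the level used throughout. Over the 16429 genes with a mean of at least 2 normalized counts and an annotated length, the median level was 122 counts per kb.

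Passage through G1 depends on the D-type cyclins, which activate CDK4 and CDK6, and later on the E-type cyclins, which activate CDK2. Both kinases phosphorylate RB and its relatives, which then release the E2F factors that drive genes of S phase. The INK4 proteins (p16Ink4a, p15, p18 and p19) bind CDK4 and CDK6 and block them, while the Cip/Kip proteins (p21, p27 and p57) act mainly on cyclin–CDK2 complexes. In many cell types p16Ink4a and p21 accumulate in senescence, and a fall in lamin B1 is widely used as a mark of that state.

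Most of the G1 regulators were expressed well above the typical gene, and the INK4 gene Cdkn2a stood highest. Of the 10 genes, 9 had a level above the median of all genes, 7 lay above percentile 75 and 4 above percentile 90. The counts for percentiles 75 and 90 were made only with the longest transcript and a minimum mean of 2. Cdkn2c and Ccnd2 were close to percentile 90, at 91.0 and 90.9, and Cdkn1a and Cdkn2b close to percentile 75, at 77.6 and 77.0. The exception below the median was Cdkn1c, at 65.1 counts per kb. Rb1 and Ccne1 were nearest above it, and with the coding length they too were below the median of all genes, which left 7 above. The levels spanned 158-fold between Cdkn2a and Cdkn1c. Together the 10 genes took 0.173% of the summed means of all genes. Their median level of 673 counts per kb corresponded to percentile 83.2 of all genes.

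**Figure D1:**
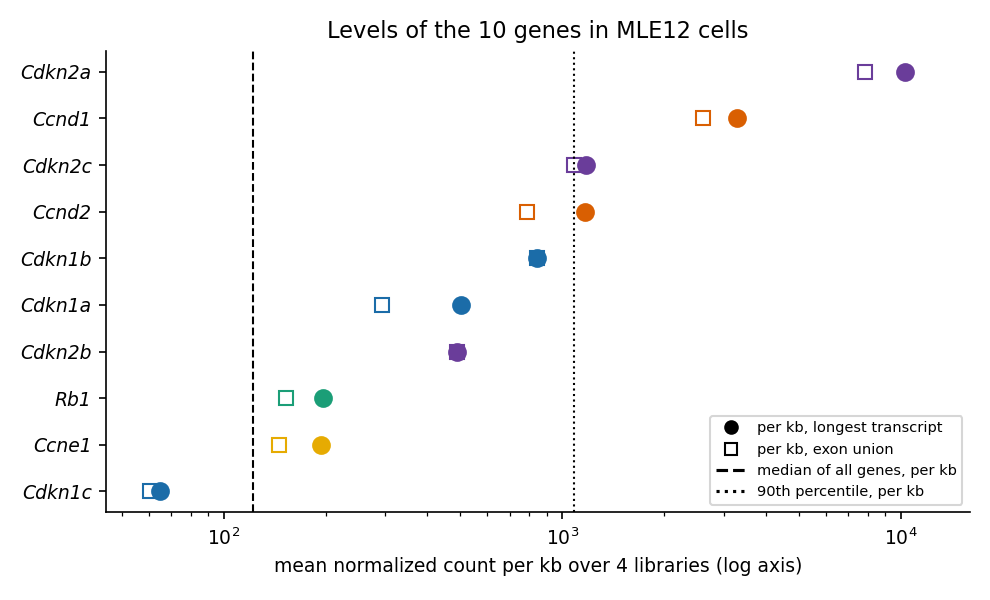
Level of each of the 10 genes on a log axis, as the authors' mean normalized count over 4 libraries per kb of the longest transcript (filled circles) and per kb of the exon union (open squares). Lines mark the median (122) and the 90th percentile (1080) of all genes per kb of the longest transcript. Cdkn2a and Ccnd1 lie far to the right, and Cdkn1c is the gene left of the median.

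Among the INK4 genes, Cdkn2a had by far the highest level. Its mean was 9208 normalized counts and its level 10288 counts per kb, 84.3 times the median of all genes and 73rd in rank among 16429 genes (percentile 99.6). Cdkn2c, which encodes p18, followed with a mean of 2905 normalized counts and a level of 1176 counts per kb (percentile 91.0). Cdkn2b, the gene of p15, had a mean of 680 normalized counts and a level of 489 counts per kb (percentile 77.0). Thus the direct neighbor of Cdkn2a on the chromosome had a level 21.0 times below that of Cdkn2a, or 10.4 times with the coding length. The remaining INK4 gene, Cdkn2d (p19Ink4d), stood at 469 counts per kb, close to Cdkn2b. Cdkn2a held 82.8% of the summed level of the 4 INK4 genes, against 9.46% for Cdkn2c, 3.94% for Cdkn2b and 3.78% for Cdkn2d. The shares moved with the length used, and with the coding length they were 67.2% for Cdkn2a and 21.3% for Cdkn2c. The level and share of Cdkn2a also count reads of its p19Arf transcript, which encodes no INK4 protein.

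In GRCm38, Cdkn2a occupies bases 89274471 to 89294653 of chromosome 4, on the minus strand, and Cdkn2b bases 89306299 to 89311039, on the same strand, so that 11645 bases separate the end of Cdkn2b from the start of Cdkn2a. Cdkn2c lies apart from them on chromosome 4, from 109660876 to 109667189. Cdkn2a encodes a pair of unrelated proteins. One transcript (Cdkn2a-201, 852 bases) encodes p16Ink4a, and the other (Cdkn2a-202, 895 bases) encodes p19Arf, which binds MDM2 and thereby stabilizes p53. The p19Arf transcript starts 12461 bases upstream of the p16Ink4a transcript and has its own first exon. The transcripts share 575 bases of exon sequence, which is 67.5% of the p16Ink4a transcript and 64.2% of the p19Arf transcript. The value of Cdkn2a is a count per gene, and it does not divide the reads between p16Ink4a and p19Arf.

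The join of the first and second exon shows why the products differ although most of their sequence is common. Below, the last 30 bases of each first exon are in capitals and the first 45 bases of the common second exon in lower case, from the GENCODE M21 transcripts.
Cdkn2a-201 (p16Ink4a): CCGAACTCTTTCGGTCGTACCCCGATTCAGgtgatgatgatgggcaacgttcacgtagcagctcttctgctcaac
Cdkn2a-202 (p19Arf): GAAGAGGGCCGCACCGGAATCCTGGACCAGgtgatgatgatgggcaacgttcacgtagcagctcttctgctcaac
The first exon holds 126 coding bases in the p16Ink4a transcript, a whole number of codons, and 190 in the p19Arf transcript, which leaves 1 base over. The second exon, from 89276645 to 89276985, is therefore read in different frames. A read that falls within the lower-case bases alone belongs to both transcripts.

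**Figure D2:**
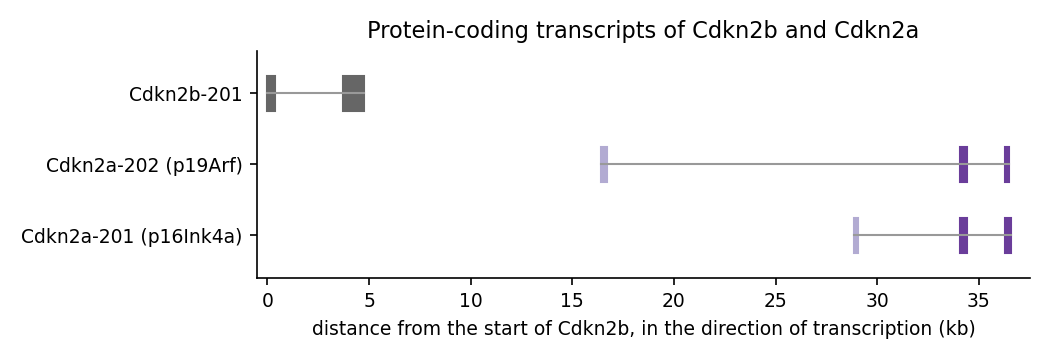
Exons (boxes) and introns (lines) of the protein-coding transcripts of Cdkn2b and Cdkn2a against distance from the start of Cdkn2b in kb, in the direction of transcription. Dark purple boxes are the exons 2 and 3, common to both Cdkn2a transcripts apart from the final bases of exon 3, and light purple boxes the separate first exons, whose starts are 12461 bases apart.

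The Cip/Kip inhibitors were less abundant than Cdkn2a and differed among themselves. Cdkn1b, the gene of p27, led them with a mean of 3834 normalized counts and a level of 842 counts per kb (percentile 86.8). Cdkn1a, the gene of p21 and a known target of p53, had a mean of 1046 normalized counts and a level of 503 counts per kb (percentile 77.6). Cdkn1c, the imprinted gene of p57, had a mean of 124 normalized counts and a level of 65.1 counts per kb (percentile 41.3). Cdkn1b therefore held 59.7% of the summed level of the family, against 35.6% for Cdkn1a and 4.61% for Cdkn1c. With the coding length the shares were 73.7% for Cdkn1b, 24.9% for Cdkn1a and 1.35% for Cdkn1c. Cdkn1b spans bases 134920401 to 134925513 of chromosome 6 and Cdkn1a bases 29090976 to 29100727 of chromosome 17, both on the plus strand. Cdkn1c is on the minus strand of chromosome 7, at bases 143458339 to 143461050. The uncharacterized gene AC167363.2 covers 273 of the 3553 exon bases of Cdkn1a on the opposite strand. An antisense gene, Gm44732, covers 625 of the 2039 exon bases of Cdkn1c, and no source used here says whether reads were counted by strand. The value of Cdkn1c is for this reason uncertain. The same holds for Cdkn1a, Ccnd1, Ccnd2 and Rb1, whose exons also overlap genes on the opposite strand.

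The D-type cyclins were dominated by Ccnd1. Its mean of 12292 normalized counts was the highest of the 10 genes, and its level of 3287 counts per kb (percentile 97.7) was second to that of Cdkn2a. Ccnd2 had a mean of 7385 normalized counts and a level of 1167 counts per kb (percentile 90.9). Ccnd3, the family member outside the 10 genes, had a level of 113 counts per kb, near the median of all genes: it was below the median with the longest transcript or the exon union, and above it with the coding length (496 against 437 counts per kb) or without length correction (435 against 379 counts). Ccnd1 thus held 72.0% of the summed level of the D-type cyclins, against 25.6% for Ccnd2 and 2.47% for Ccnd3. With the coding length, Ccnd1 held 60.6% and Ccnd2 37.2%. Ccnd1 spans bases 144929931 to 144939925 of chromosome 7 and Ccnd2 bases 127125162 to 127152193 of chromosome 6, both on the minus strand. Of the exon bases of Ccnd1, 1100 of 4709 are also exon of a protein-coding gene on the opposite strand. It is listed as LTO1 and had a mean of 560 normalized counts. The antisense genes 9330179D12Rik and Gm43126 overlap 368 and 372 of the 9409 exon bases of Ccnd2, and 9330179D12Rik had a mean of 9.38 normalized counts.

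Ccne1 was modest in abundance. It had a mean of 387 normalized counts and a level of 193 counts per kb (percentile 58.5), 1.59 times the median of all genes. Its relative Ccne2 was higher at 350 counts per kb, so Ccne1 held 35.6% of the summed level of the E-type cyclins, against 64.4% for Ccne2. The gene is on the minus strand of chromosome 7, at bases 38097984 to 38107534. The level of Ccnd1 was 17.0 times that of Ccne1, and 43.9 times with the coding length.

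Rb1 was the least abundant of the pocket protein genes. It had a mean of 916 normalized counts and a level of 197 counts per kb (percentile 58.8). Rbl1, the gene of p107, stood at 607 and Rbl2, the gene of p130, at 526 counts per kb. Rb1 held 14.8% of the summed level of the family, against 45.7% for Rbl1 and 39.5% for Rbl2. Rb1 spans bases 73183673 to 73325822 of chromosome 14, on the minus strand, and has 27 exons in its longest transcript. Exons of Rcbtb2 and Lpar6 on the opposite strand overlap 488 and 408 of the 6015 exon bases of Rb1, with means of 332 and 156 normalized counts.

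**Figure D3:**
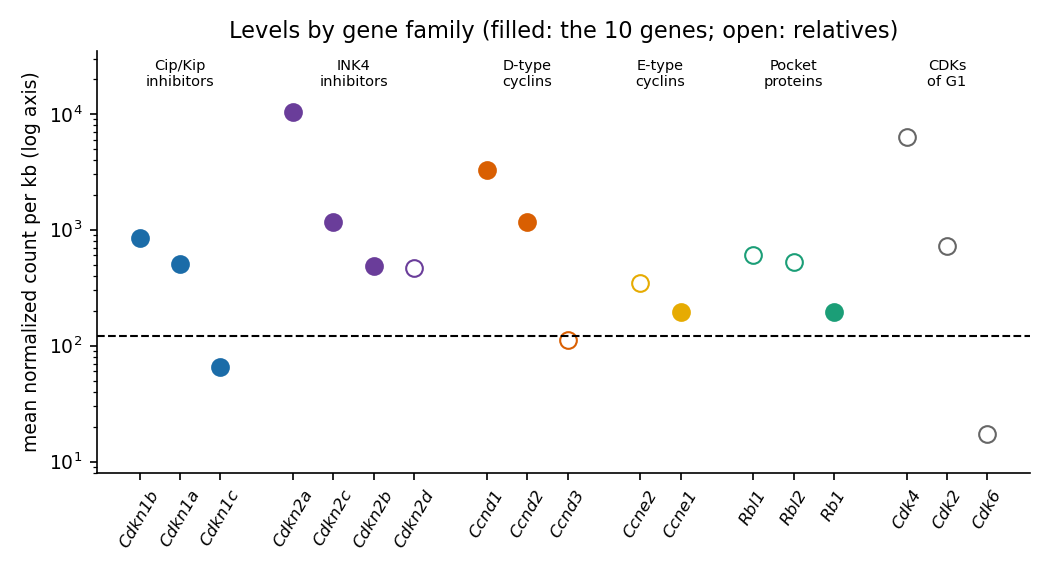
Level (mean normalized count per kb of the longest transcript, log axis) of each gene by family. Filled circles are the 10 genes and open circles their relatives, and the dashed line is the median of all genes (122). Cdkn2a (10288) and Cdk4 (6268) stand highest, while Cdk6 (17.3), Cdkn1c (65.1) and Ccnd3 (113) lie below the line, Ccnd3 being above the median with the coding length or without length correction.

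The order of the levels rested in part on which length was used. With the longest transcript, it ran from Cdkn2a through Ccnd1, Cdkn2c, Ccnd2, Cdkn1b, Cdkn1a, Cdkn2b, Rb1 and Ccne1 to Cdkn1c. With the exon union or the coding length in place of the longest transcript, the first and second place and the last 3 places were the same. Cdkn2c, Ccnd2 and Cdkn1b exchanged places 3 to 5, and Cdkn1a and Cdkn2b exchanged places 6 and 7. These neighbors are therefore not ranked, all the more since no spread over libraries stands behind the means. Within the INK4, Cip/Kip, D-type cyclin, E-type cyclin and pocket protein families the order was the same with each of the 3 lengths. Without any division by length, Ccnd1 passed Cdkn2a, whose longest transcript has 895 bases against 3740 bases for Ccnd1. Rb1 then also passed Cdkn2b (means of 916 and 680 normalized counts), and Ccnd2 and Cdkn1b passed Cdkn2c.

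**Figure D4:**
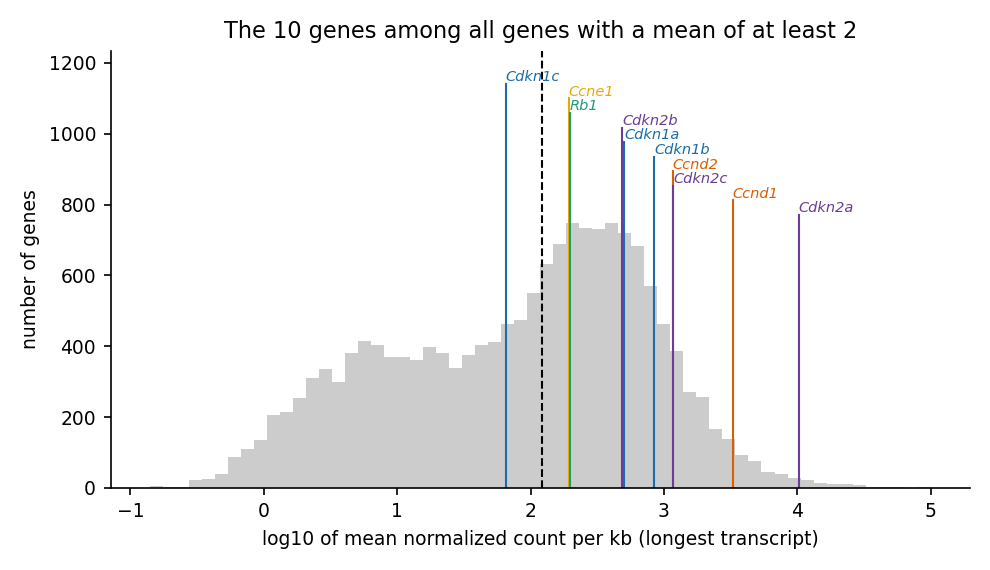
Number of genes against log10 of the level (mean normalized count per kb of the longest transcript) for the 16429 genes with a mean of at least 2. Vertical lines mark the 10 genes, their heights carrying no meaning, and the dashed line the median. Of the 10 genes 9 lie right of the median, and Cdkn2a sits in the far tail.

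The partners of these genes in G1 were also mostly above the median. From a list of 29 partners and relatives, 24 had a level above the median of all genes, with a median of 462 counts per kb. The number was 21 to 26 under the other lengths and minimum means, which were added for this list after seeing the data. Of the kinases, Cdk4 had a level of 6268 counts per kb (percentile 99.1), Cdk2 724 and Cdk6 17.3 counts per kb. The level of Cdkn2a was 1.64 times that of Cdk4, whose product the INK4 proteins bind. This ratio ranged from 1.28 with the coding length to 1.98 with the exon union. Without length, the mean of Cdkn2a was 0.716 times that of Cdk4. The value of Cdkn2a counts reads of p19Arf too, so no ratio of p16Ink4a to Cdk4 can be taken from it. Among the 8 E2F genes, 6 were above the median, a count that moved with the length and minimum mean. E2f5 (158 counts per kb) and E2f7 (218) were below the median of 238 with a minimum mean of 20 normalized counts. With the exon union, E2f2 was above the median (109 against 91.3 counts per kb). E2f4, which mainly represses its targets together with the p107 and p130 proteins, had the highest level with 1453 counts per kb, and E2f1, an activator held by RB, had 814. Trp53 and Mdm2, on which p19Arf acts, had levels of 1359 and 819 counts per kb.

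Genes linked to senescence or to the secretory phenotype that often goes with it ranged widely in level. Of a list of 15 such genes, 11 had a mean level. The other 4 (Il1b, Cxcl2, Mmp3 and Igfbp7) were looked up by symbol and had none. Of the 11 genes, 4 were above the median of all genes (3 to 5 under the other lengths and minimum means), and the median level of the 11 was 55.8 counts per kb. Hmgb1, a chromatin protein that senescent cells release, had 1172 counts per kb, and Glb1, the gene of the lysosomal β-galactosidase used as a senescence stain, had 610. The urokinase receptor gene Plaur had 403 counts per kb, and Tnfrsf10b, a death receptor gene, had 211. The cytokine gene Il6 stood at 9.68 and Il1a at 1.75 counts per kb. A mean over Lmnb1 KD and control cells cannot place either of them in or out of senescence.

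The promoters of 6 of the 10 genes were matched by symbol in the RefSeq table of GRCm38.p6, as 9 windows of 300 bases. Their median GC content was 62.0%, against 60.3% over the 14020 promoters of genes in the table. The windows at the p16Ink4a and p19Arf starts of Cdkn2a differed from each other, with 60.3% and 77.0% GC and with 12 and 45 CpG sites.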

How the data were processed

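Poly(A) RNA of 2 Lmnb1 KD and 2 control MLE12 libraries was sequenced by Ion Torrent. STAR, DESeq2 and mm10 come from the processing notes of the submitters, and trimming with Reaper from the paper's methods. Versions, the read counter and the use of strand: not given in the sources used here. Each deposited mean is the authors' signal for each gene: read counts divided by size factors and averaged over all 4 libraries. The same table holds the authors' own comparison of the groups (fold change, p and adjusted p), which was not used, so no test was run and the fits foreseen for values per library were not made. Depth per library is unknown, and the means of all genes sum to 22404230 normalized counts. Whether replicates came from separate cultures is not stated.

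Of 17906 genes with a mean, 17683 (98.8%) matched GENCODE M21 (GRCm38, the assembly of mm10) by identifier, and positions and lengths come from it. The longest transcript was taken whatever its annotated type, and it has 2 exons for Ccnd3 and 1 exon for Cdk2. Means were divided by length in kb. Such levels assume even read coverage along transcripts, which was not tested. Medians and percentiles use genes with a mean of at least 2, the minimum of the study. A BLAST 2.17.0 search (95% identity, at least 100 bases) used the longest transcript of each member. It found no near-identical copy of a member beyond genes on the opposite strand that overlap it. Python 3.11.15 and pandas 2.3.3 were used, and the length and percentile steps were tested on simulated data. All 10 genes are named, with relatives or partners in G1 control. The genes and lists were chosen with earlier results of these data known. An item of the senescence list is not reported here, and the counts leave it out. Alternatives were the exon union, the coding length, no length correction, and other minimum means.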

Additional observations from a re-analysis of the deposited data

How the results depend on the processing

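Of the 10 genes, 9 had a level above the median of all genes, and 9 did so with the exon union in place of the longest transcript, without length correction, and with no minimum mean. With the coding length, and with a minimum mean of 20 normalized counts, 7 did so: Rb1 and Ccne1 then joined Cdkn1c at or below the median, which was 437 counts per kb of coding length and 238 counts per kb of longest transcript in these cases. The senescence and secretory genes above the median numbered 4, and 3 to 5 under the same alternatives, which were added for this list after seeing the data. No paired analysis was possible because the mean used here joins all 4 libraries, and for the same reason no replicate could be left out and no other normalization or count model was run. The mean carries no spread between libraries, so a small difference between genes in level cannot be set against replicate error. A mean over both groups also hides any opposite change between them.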

Other observations

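The marker genes listed to check the cell type were high in part for an epithelial line of alveolar type II origin. Of 10 alveolar type II genes, 7 had a value and 5 of them were above the median of all genes, led by Sftpb, which encodes surfactant protein B, at 3996 counts per kb, and with the lung transcription factor gene Nkx2-1 at 949. The type II genes below the median were Napsa, at 7.18 counts per kb, and the surfactant gene Sftpa1, near 0 with a mean of 1.57 normalized counts. Of 5 epithelial markers, 3 were above the median. The keratin genes Krt19 and Krt8 had levels of 20111 and 4865 counts per kb, and Cdh1, the gene of E-cadherin, had 330. Epcam, an epithelial adhesion gene, had 37.9 counts per kb and Krt18, which encodes the usual partner of keratin 8, had 8.96, both below the median. Of the leukocyte markers 1 of 5 had a value (Itgam, a mean of 7.95 normalized counts), and the 3 endothelial markers with a value were all below the median. Of 6 mesenchymal markers, 5 were below the median, while Dcn, which encodes the matrix proteoglycan decorin, had a level of 2612 counts per kb (percentile 96.8).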
